A study of Rattus norvegicus with 23 samples.

Results

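This account concerns 89 genes of rat neural stem cells whose mean transcript level on a soft substrate at 12 h lay far below that at every other sampled time on soft and at all sampled times on a stiff substrate, 12 h included. They were chosen from the data. Counts were scaled to the total of their library, as CPM, and averaged in 8 groups of substrate and time. A gene was a member where its soft 12 h mean was under 0.5 of the mean of each of the 7 other groups, and the lowest of those 7 means was 5 CPM or more. The second condition left 8768 of 32883 listed genes to be screened, and 89 of them met the first. The difference between soft and stiff at 12 h, and the steps into and out of 12 h on soft, are therefore given as descriptions without a test.

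The cells were adult hippocampal neural stem cells of wild-type female rats. All groups were kept in a medium for mixed differentiation, DMEM-F12 with N2, to which 1% fetal bovine serum and 1 uM retinoic acid were added. The groups were soft at 0, 12, 24 and 36 h and stiff at 0, 12, 24 and 36 h, with 3 libraries each except soft 12 h. That group had 2, replicates 1 and 3, and the data used here held no replicate 2 library of it. How stiff each substrate was, as a pressure, was not given in the sources used here, nor was the treatment before 0 h. No animal or culture is named for a round, so the p-values speak of the spread between libraries alone, which may be technical.

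Neural stem cells of the adult hippocampus divide slowly, renew themselves and give rise to neurons and astrocytes. Retinoic acid acts through nuclear receptors and promotes neuronal differentiation, and serum favours astrocytes. Cells sense the stiffness of what they adhere to through integrins, focal adhesions and the actin cytoskeleton, and softer substrates are known to favour neurons over glia in such cultures. The roles of the 89 genes cannot be given: the table lists Ensembl identifiers alone, and 0 of them were found in the available table of gene names. Members are called below by their rank in depth of the dip, from 1 for the deepest to 89, and 4 identifiers are printed. For the same reason the cell type was not checked against markers, and no pathway list could be counted.

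The libraries held 2462360 to 6811157 counts and detected 13094 to 14547 genes. The soft 12 h libraries were among the deeper ones, with 5428086 and 6519349 counts, against 2462360 to 4803755 in the stiff 12 h libraries. They also had the highest shares of counts in the 100 most abundant genes, at 24.9% and 24.5%, against 22.4% to 24.1% in the other 21 libraries. The part of depth or of this share in the dip was not tested. Thinning every library to the smallest total gave 96 members, of which 74 were among the 89.

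The rule sets soft 12 h below each other group mean, so a dip and a rise by 24 h were fixed by the choice. The values describe the size of the dip, and not every member regained its 0 h level by 24 h. Summed over the 89 members, the soft libraries held 8197, 7649 and 6696 CPM at 0 h, 2178 and 1871 CPM at 12 h, 6812, 6927 and 5643 CPM at 24 h, and 6681, 6136 and 7966 CPM at 36 h. The stiff libraries held 6142, 9734 and 9200 CPM at 0 h, 6166, 7044 and 6598 CPM at 12 h, 5782, 5406 and 6015 CPM at 24 h, and 6485, 6072 and 5444 CPM at 36 h. No other library of the 21 came near the 2 soft 12 h libraries: the lowest of them, a stiff 24 h library, was at 5406 CPM. At 12 h the sums were 2024 ± 217 CPM on soft (SD, n = 2) and 6603 ± 439 CPM on stiff (SD, n = 3). In such bulk libraries, fewer cells of a kind that expresses the members and less of their RNA per cell cannot be told apart.

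**Figure D1:**
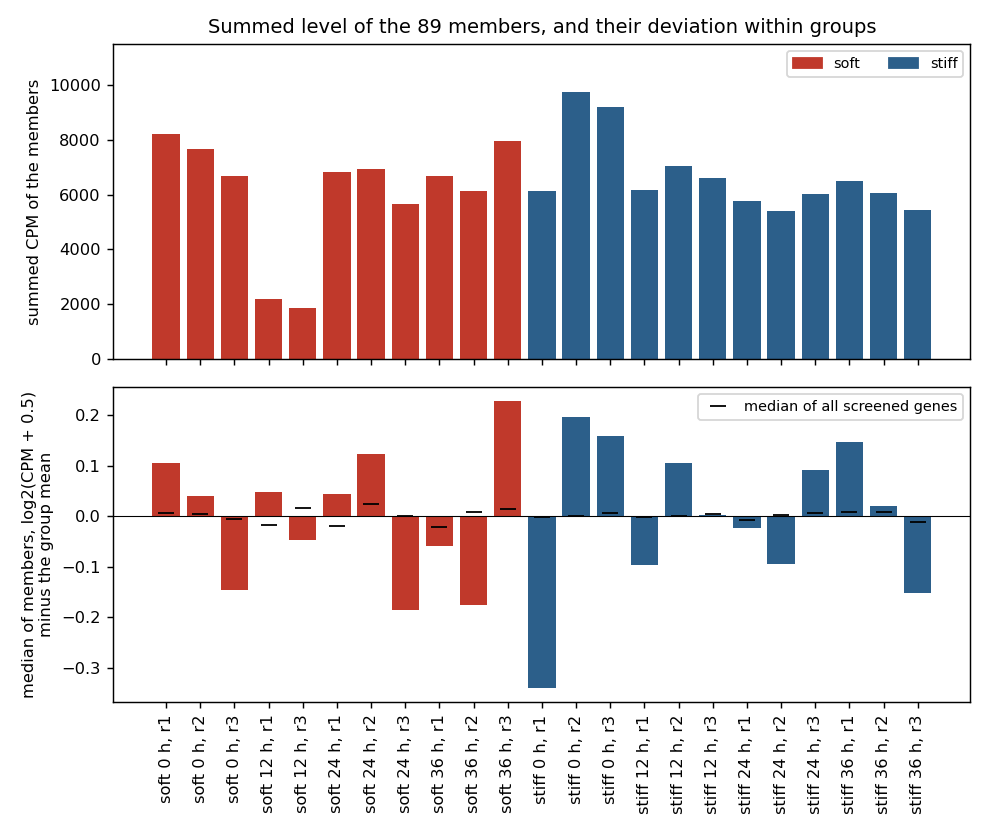
The summed CPM of the 89 members in each of the 23 libraries (upper panel, soft left of stiff, r1 to r3 for replicates 1 to 3) and the median deviation of the members from their own group mean on the log2 scale (lower panel). The bars of the 2 soft 12 h libraries stand at 2178 and 1871 CPM and the other 21 at 5406 CPM or more; in the lower panel stiff 0 h replicate 1 lies lowest, at -0.34.

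The typical member followed the same course, with its dip again set by the rule. The median member was at 28.2, 7.43, 29.2 and 33.1 CPM on soft at 0, 12, 24 and 36 h, and at 30.7, 29.8, 25.6 and 27.1 CPM on stiff. Set against its own mean over the 7 other groups, the median member stood at 0.950, 0.304, 1.02 and 1.14 on soft and at 1.01, 0.911, 0.892 and 0.996 on stiff. Over all 8768 screened genes the medians of the 8 groups were 41.0 to 43.9 CPM.

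**Figure D2:**
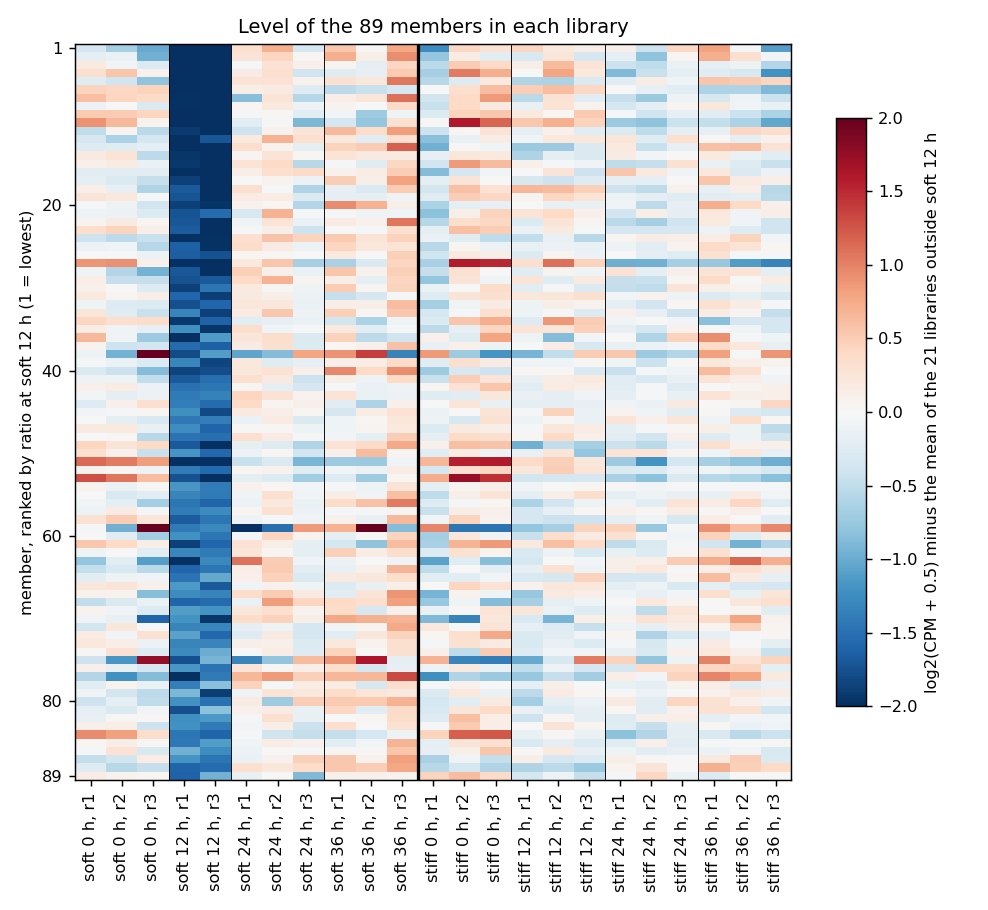
Each of the 89 members (rows, deepest dip at the top) in each of the 23 libraries (columns, soft left of stiff and time from left to right within a substrate; r1 to r3 are replicates), coloured by log2(CPM + 0.5) minus the gene's mean over the 21 libraries outside soft 12 h, with the colour scale ending at -2 and 2. The soft 12 h columns are low in nearly every row; ranks 38, 59 and 75 vary between libraries of the same group more than the rows around them.

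The depth of the dip varied over a wide range. The ratio of the soft 12 h mean to the lowest other group mean had quartiles of 0.330, 0.395 and 0.463, with a lowest value of 0.0620, while the median of all screened genes was 1.22. Against stiff 12 h alone the members' ratio ranged from 0.0325 to 0.5, with a median of 0.333. Against soft 0 h the median was 0.341 and against soft 24 h it was 0.300. The threshold fell in a continuous distribution: the 3 members just inside it had ratios of 0.496, 0.499 and 0.499941, and the 3 genes just outside had 0.501, 0.503 and 0.504. At the floor, the 3 members with the lowest other mean had 5.04, 5.29 and 5.68 CPM there, and the 3 genes just below it had 4.71, 4.83 and 4.92 CPM.

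The levels behind these ratios were low but countable. The members' mean over the 7 other groups ranged from 6.69 to 926 CPM with a median of 30.0 CPM, and that of all screened genes had a median of 44.2 CPM. These are counts of 3′ tags and are not scaled to gene length. The 2 soft 12 h libraries together held 8 to 4255 counts per member, with a median of 87, and no member was at 0 counts in either.

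ENSRNOG00000056337 had the deepest dip. On soft it was at 13.3, 10.4 and 8.20 CPM at 0 h, 0.553 and 0.767 CPM at 12 h, 21.4, 28.0 and 13.3 CPM at 24 h, and 24.9, 17.1 and 29.1 CPM at 36 h. On stiff it was at 6.77, 22.7 and 20.9 CPM at 0 h, 22.9, 19.5 and 18.4 CPM at 12 h, 18.1, 12.6 and 22.8 CPM at 24 h, and 29.8, 16.5 and 7.64 CPM at 36 h. The soft 12 h values rest on 3 and 5 counts, which pooled give 0.670 CPM with an exact 95% Poisson interval of 0.289 to 1.32 CPM, for counting error only. Every other library lay above that interval, and the soft 12 h mean was 16.1-fold below the lowest other group mean, which was soft 0 h, and 30.7-fold below stiff 12 h.

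ENSRNOG00000017231 came next. Its levels on soft were 29.5, 30.7 and 17.1 CPM at 0 h, 1.47 and 2.30 CPM at 12 h, 40.5, 45.5 and 34.2 CPM at 24 h, and 56.0, 36.8 and 64.9 CPM at 36 h. Its levels on stiff were 19.5, 37.3 and 28.9 CPM at 0 h, 27.3, 39.8 and 26.5 CPM at 12 h, 29.5, 19 and 34.8 CPM at 24 h, and 56.0, 42.5 and 32.5 CPM at 36 h. With 8 and 15 counts its pooled soft 12 h level was 1.93 CPM, with an exact 95% Poisson interval of 1.22 to 2.89 CPM. Its soft 12 h mean was 13.7-fold below the lowest other group mean and 16.5-fold below stiff 12 h, and the groups did not overlap.

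The member ranked 3 was at 7.74 and 3.99 CPM in the soft 12 h libraries, and its other 21 libraries ran from 36.2 to 84.5 CPM. That ranked 4 was at 2.76 and 2.30 CPM, and its other libraries ran from 10.2 to 50.4 CPM. The 2 soft 12 h libraries of the rank 3 member differed between themselves by more than those of rank 4, yet in both genes they stood far below all others.

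**Figure D3:**
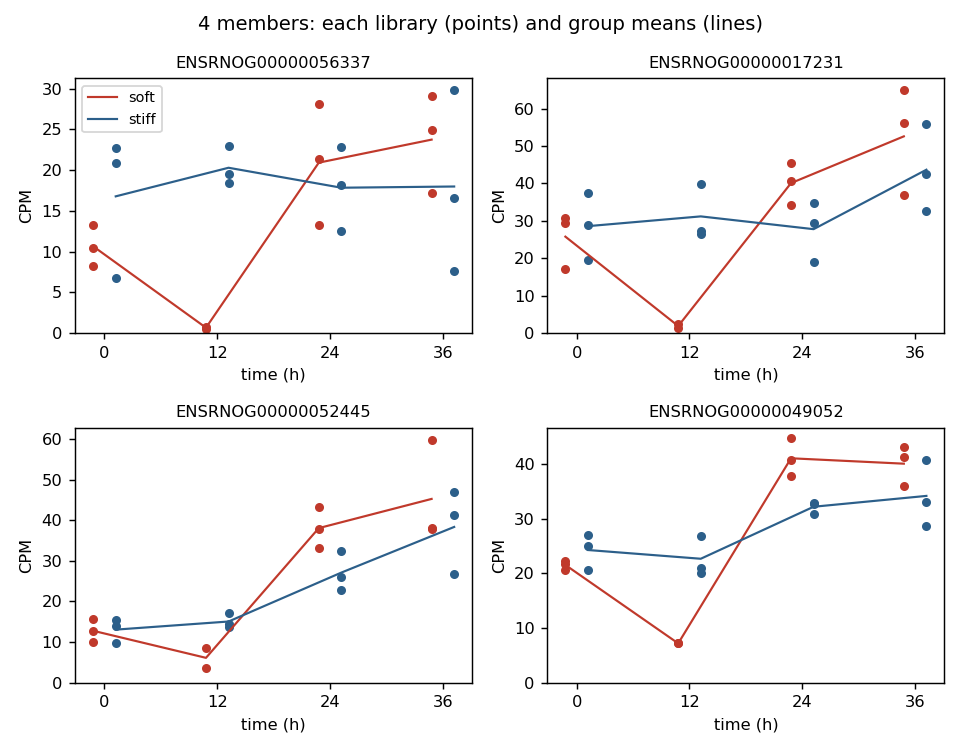
CPM against time (h) in the 4 members whose identifiers are printed, with 1 point for each library, lines through the group means, and soft drawn left of stiff at each time. The soft 12 h points lie below all other points of the same panel, and every stiff 12 h point lies above both soft 12 h points.

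The dip was not limited to genes of low count. The member with the highest level, ranked 53 by depth, was at 1899, 1636 and 1202 CPM at 0 h on soft, 232 and 175 CPM at 12 h, 684, 649 and 480 CPM at 24 h, and 657, 479 and 800 CPM at 36 h. On stiff it was at 1306, 2614 and 2160 CPM at 0 h, 602, 616 and 619 CPM at 12 h, 500, 443 and 642 CPM at 24 h, and 526, 502 and 436 CPM at 36 h. This gene was thus already lower at 12 h than at 0 h on stiff. On soft it went below that level at 12 h and rose by 24 h, but not to its 0 h level.

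The member with the second highest level, ranked 54, had a different course around the same dip. On soft it was at 915, 805 and 886 CPM at 0 h, 390 and 328 CPM at 12 h, 920, 894 and 840 CPM at 24 h, and 861, 808 and 1045 CPM at 36 h. On stiff its 12 libraries ran from 772 to 947 CPM at all 4 times. Outside soft 12 h its 21 libraries stayed within 772 to 1045 CPM.

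**Figure D4:**
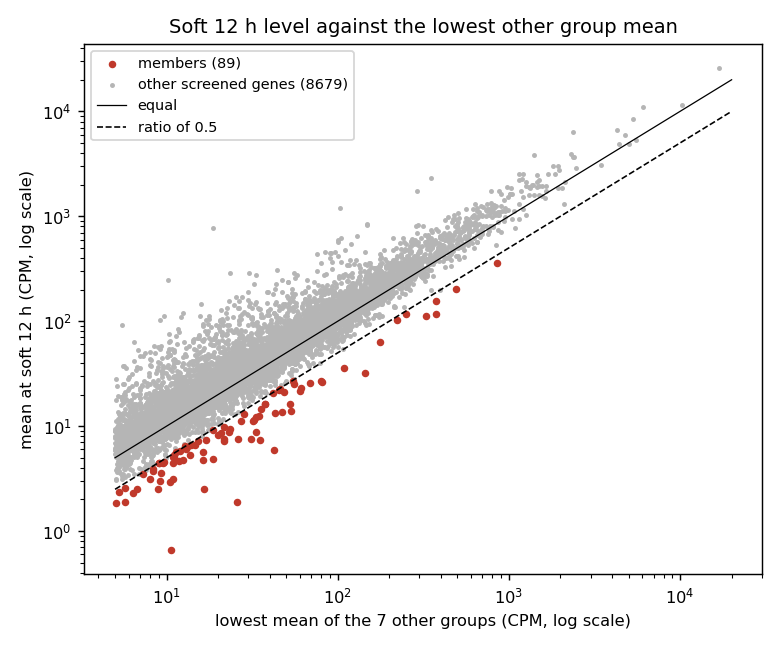
Mean CPM at 12 h on soft against the lowest mean of the 7 other groups (both log axes) for the 8768 screened genes (grey) and the 89 members (coloured), with the line of equal values and the line at a ratio of 0.5. The members lie below the second line by definition and are spread over low and high levels.

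The dip was present in each soft 12 h library. In 85 of the 89 members both were below all 21 other libraries, a state that 7.68% of all screened genes shared; the rule used these values, so nothing is read from the gap. The 4 exceptions were the members ranked 38, 59, 70 and 75. Within round 1 the ratio of soft to stiff at 12 h had a median of 0.375 over the members (0.0241 to 0.761), and 76 of 89 were under 0.5, against 2.16% of screened genes. Within round 3 the median was 0.301 (0.0416 to 0.701), and 78 of 89 were under 0.5, against 2.53%. Over all screened genes the median ratio was 0.975 in round 1 and 1.00 in round 3. These libraries enter the means of the rule, so nothing is read from these gaps either. Between the soft 12 h libraries differences were smaller: replicate 3 over replicate 1 had a median ratio of 0.935 (0.446 to 2.36), with 52 of 89 members lower in replicate 3.

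The genes were also chosen without 1 round and read in it, which separates the choice of genes alone from the measurement. The low group, the ratio and the floor were set with all rounds known. Each reading rests on 1 soft 12 h library. Without round 3 the rule found 93 genes. In the 8 libraries of round 3, soft 12 h was under 0.5 of each of the 7 others in 54 of them (58.1%) and the lowest of 8 in 83 (89.2%), with a median ratio to the lowest other of 0.448. Among the 8692 genes screened that way the state was met by 0.84%, soft 12 h was lowest in 17.1%, and the median ratio was 1.31. Without round 1 the rule found 97 genes. In round 1, 52 of them (53.6%) were under 0.5 and 93 (95.9%) were lowest, with a median ratio of 0.491, against 0.815% and 20.5% of 8717 screened genes and a median of 1.26. The 2 choices shared 61 genes. The chosen genes share the libraries they are read in, so they are not independent of each other.

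The same rule was applied to each other group as the low one. Soft 12 h was made the low group of the rule with these means known. The counts are therefore descriptions, and nothing is read from the gaps between groups. In that count, 0 genes were found for soft 0 h, soft 24 h and each of the 4 stiff groups, and 1 for soft 36 h. The group means of soft 12 h rest on 2 libraries and the others on 3, so the count was repeated on rounds 1 and 3 alone, which gave 81 for soft 12 h, 6 for soft 36 h, 2 for stiff 36 h, 1 for stiff 0 h and 0 for the other groups. With a ratio under 0.6 there were 163 genes for soft 12 h and 0 to 4 for another group, and with one under 0.8 there were 597 and 3 to 99. Soft 12 h was the lowest of the 8 group means in 22.3% of screened genes, and another group in 3.55% to 18.4%. The opposite pattern, a soft 12 h mean over 2 times the highest other group mean and at 10 CPM or more, was found in 0 genes. With another group as the high one it was found in 2 genes for soft 36 h, 1 for stiff 0 h and 0 for the rest.

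Outside soft 12 h, differences between substrates did not pass the test for any member. In the quasi-likelihood test of edgeR, with p adjusted by the Benjamini-Hochberg method over 11857 genes and called under 0.05, 0 of 89 were called at 0 h, where 0.0% of all genes were called, 0 at 24 h, where 0.0% were, and 0 at 36 h, where 0.0675% were. At an unadjusted p under 0.05 there were 4 members at 0 h, 9 at 24 h and 7 at 36 h, and 431, 358 and 835 of all genes. DESeq2 also called 0 members at each of these times. At 0 h the members' median log2 difference, soft minus stiff, was -0.12, and 23 of 89 were above 0, against 47.9% of all genes. At 24 h the median was 0.18 with 77 of 89 above 0, and at 36 h it was 0.19 with 75 of 89 above 0, where 50.8% and 51.7% of all genes were above 0. The members move together between libraries, as shown further down, so these counts are not 89 separate observations.

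The change from 0 h to 24 h was compared between substrates directly. The soft change minus the stiff change was above 0 in 76 of 89 members, with a median of 0.30 on the log2 scale, against 50.8% and 0.0040 for all genes. By edgeR's test 0 members were called, and 0.0% of all genes were. An unadjusted p under 0.05 was found in 14 members (15.7%) and in 534 of all genes (4.50%). At 36 h, 45 of the 89 members (50.6%) had the highest of their 7 group means in soft 36 h, as did 20.4% of screened genes.

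**Figure D5:**
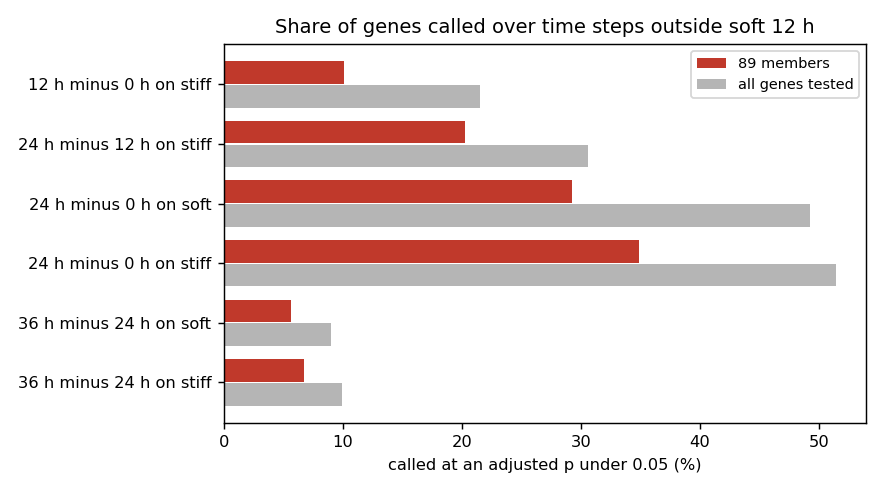
The percent of the 89 members (red) and of all 11857 tested genes (grey) called in either direction at an adjusted p under 0.05, for each time contrast that does not use soft 12 h. The red bar is the shorter one in each of the 6 contrasts, from 5.62% against 9.0% for 36 h minus 24 h on soft to 34.8% against 51.4% for 24 h minus 0 h on stiff.

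Over time the share of members called was below that of all genes in each of the 6 contrasts that do not use soft 12 h, a difference that was not tested. The rule favours genes with no second low group, and the set of all genes was not held to its 5 CPM floor. Members also had a wider within-group spread, as given further down. The gap is therefore not read as a steadier level of the members over time. Over the 7 groups outside soft 12 h, the ratio of the highest to the lowest mean had a median of 1.61 in members and of 1.59 in screened genes. By 12 h on stiff 9 of 89 members (10.1%) were called, 0 higher and 9 lower, against 21.5% of all genes, 11.8% higher and 9.75% lower. Between 12 h and 24 h on stiff 18 (20.2%) were called, 3 higher and 15 lower, against 30.6%, with 14.5% higher and 16.1% lower. The member ranked 53 had the largest fall by 12 h on stiff, with a log2 difference of -1.71 (SE 0.19, adjusted p = 1.38e-08 by edgeR's test). The count by 12 h on stiff rested on single 0 h libraries: it was 18 without stiff 0 h replicate 1 and 5 without replicate 2.

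From 0 h to 24 h on soft, a contrast that passes over the dip, 26 members (29.2%) were called, 16 higher and 10 lower, against 49.2% of all genes, 25.1% higher and 24.1% lower. The split turned with single libraries: 9 were higher and 12 lower without soft 24 h replicate 2, and 9 higher and 11 lower without soft 0 h replicate 3. On stiff 31 (34.8%) were called, 7 higher and 24 lower, against 51.4%, with 25.9% higher and 25.4% lower. Of the members, 17 (19.1%) were called on both substrates, against 41.5% of all genes, and all 17 had the same sign on both, as did each of the 4917 such genes in all. From 24 h to 36 h on soft 5 (5.62%) were called, 4 higher and 1 lower, against 9.0% of all genes, 4.66% higher and 4.33% lower. On stiff 6 (6.74%) were called, 5 higher and 1 lower, against 9.89%, with 4.6% higher and 5.29% lower. Without stiff 0 h replicate 2 or 3 the count by 24 h on stiff was 18. From 24 h to 36 h the count on soft was 3 without replicate 1 of either time and 8 without soft 24 h replicate 3, and that on stiff was 1 to 3 without stiff 36 h replicate 1 or 2 or stiff 24 h replicate 1 or 2. In all, 41 of the 89 members (46.1%) were called in none of the contrasts tested, as were 34.3% of all genes. The limits given above for the shares called hold here too.

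ENSRNOG00000052445, ranked 77 by depth, had the smallest p among the members that rose by 24 h on soft. Its levels on soft were 15.6, 9.95 and 12.8 CPM at 0 h, 3.68 and 8.59 CPM at 12 h, 37.9, 43.2 and 33.1 CPM at 24 h, and 38, 37.9 and 59.8 CPM at 36 h. Its levels on stiff were 9.83, 15.4 and 14 CPM at 0 h, 13.7, 17.1 and 14.4 CPM at 12 h, 26.0, 22.8 and 32.5 CPM at 24 h, and 46.8, 41.3 and 26.9 CPM at 36 h. It rose by 24 h on both substrates, by 1.56 on the log2 scale on soft (SE 0.22, adjusted p = 5.52e-07 by edgeR's test) and by 1.03 on stiff (SE 0.22, adjusted p = 0.000207). Its dip at soft 12 h thus came before a rise that both substrates shared.

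ENSRNOG00000049052, ranked 24, was the next. On soft it was at 22.3, 20.5 and 21.7 CPM at 0 h, 7.18 and 7.21 CPM at 12 h, 37.7, 44.6 and 40.6 CPM at 24 h, and 43.0, 35.9 and 41.2 CPM at 36 h. On stiff it was at 27.1, 25 and 20.7 CPM at 0 h, 21, 26.8 and 20.1 CPM at 12 h, 30.9, 32.9 and 32.6 CPM at 24 h, and 33.1, 40.7 and 28.6 CPM at 36 h. It rose by 0.90 on soft (SE 0.14, adjusted p = 2.41e-06 by edgeR's test) and by 0.37 on stiff (SE 0.14, adjusted p = 0.0230), and the call on stiff was lost without stiff 24 h replicate 2, stiff 0 h replicate 3 or stiff 24 h replicate 3.

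The 2 members with the deepest dips were higher at 24 h than at 0 h on soft by less certain margins. ENSRNOG00000056337 had a log2 difference of 0.95 (SE 0.35, adjusted p = 0.0228 by edgeR's test), with 0.08 on stiff. ENSRNOG00000017231 had 0.59 (SE 0.23, adjusted p = 0.0360), with -0.06 on stiff. Both calls on soft were lost with DESeq2 and without any of 3 single libraries, which were soft 0 h replicate 2 or 3 or soft 24 h replicate 2 for the first gene, and soft 0 h replicate 3 or soft 24 h replicate 1 or 2 for the second.

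The 3 smallest p-values among falls by 24 h belonged, on both substrates, to the members ranked 51, 53 and 84. That ranked 51 was at 81.8, 76.4 and 66.3 CPM at 0 h on soft, 8.47 and 8.74 CPM at 12 h, 27.2, 30.1 and 19.5 CPM at 24 h, and 22.2, 21.9 and 35.4 CPM at 36 h; on stiff it was at 59, 109 and 112 CPM at 0 h, 48.9, 51.6 and 43.6 CPM at 12 h, 22.2, 15.8 and 28.9 CPM at 24 h, and 23.2, 20.8 and 18.7 CPM at 36 h. It fell by 1.57 on soft (SE 0.20, adjusted p = 5.48e-08 by edgeR's test) and by 2.07 on stiff (SE 0.20, adjusted p = 1.33e-10). The member ranked 53 fell by 1.42 on soft and fell by 1.97 on stiff. That ranked 84 fell by 1.06 on soft and fell by 1.55 on stiff. In these genes the soft 12 h level was below the level that both substrates later reached, as the rule requires of every member.

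The member ranked 6 was lower at 24 h than at 0 h on both substrates and fell again after 24 h, apart from its dip. From 0 h to 24 h its log2 difference was -0.44 on soft (SE 0.13, adjusted p = 0.00655 by edgeR's test). On stiff it was -0.49 (SE 0.13, adjusted p = 0.00295 by the same test). Its levels on soft were 321, 313 and 322 CPM at 0 h, 41.3 and 22.9 CPM at 12 h, 257, 264 and 196 CPM at 24 h, and 163, 173 and 185 CPM at 36 h. Its levels on stiff were 235, 297 and 361 CPM at 0 h, 332, 362 and 313 CPM at 12 h, 236, 211 and 201 CPM at 24 h, and 153, 153 and 128 CPM at 36 h. It was the 1 member called lower at 36 h than at 24 h on each substrate, by 0.47 on soft (SE 0.14, adjusted p = 0.0286 by edgeR's test) and by 0.57 on stiff (SE 0.14, adjusted p = 0.00613).

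Of the 4 members called higher at 36 h than at 24 h on soft, 3 were also called higher on stiff, those ranked 49, 20 and 17. That ranked 49 was at 44.4, 39.5 and 43.4 CPM at 0 h on soft, 9.95 and 6.60 CPM at 12 h, 28.8, 27.3 and 21.3 CPM at 24 h, and 40, 43.1 and 55.6 CPM at 36 h; on stiff it was at 35.3, 50.3 and 49.2 CPM at 0 h, 16.7, 23.1 and 20.5 CPM at 12 h, 24.4, 22.5 and 29.1 CPM at 24 h, and 41, 34.8 and 35.3 CPM at 36 h. It was higher at 36 h than at 24 h by 0.81 on the log2 scale on soft (SE 0.16, adjusted p = 0.00083 by edgeR's test) and by 0.55 on stiff (SE 0.16, adjusted p = 0.0255). This member was low at 12 h on both substrates, and lower on soft. The member ranked 20 was at 27.1 and 25.3 CPM in the soft 12 h libraries, against 99.9, 90.2 and 90.6 CPM in the stiff 12 h libraries. It rose after 24 h to 194, 161 and 108 CPM at 36 h on soft, against 107, 103 and 66.1 CPM at 24 h (log2 difference 0.75, SE 0.17, adjusted p = 0.0036 by edgeR's test), and to 165, 132 and 107 CPM at 36 h on stiff, against 95.2, 69.3 and 89.4 CPM at 24 h (log2 difference 0.67, SE 0.17, adjusted p = 0.00921).

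Members also moved together between libraries of the same group. The rule used the group means of these libraries and not their deviations from them, although each library enters its mean. Within-group deviations were taken on log2(CPM + 0.5) in the 21 libraries outside soft 12 h, each group's mean removed. The mean correlation over the 3916 pairs of members was 0.360, against 0.00517 over pairs of screened genes, and 87.1% of the members' pairs were above 0. It was 0.347 in the 9 soft libraries and 0.379 in the 12 stiff libraries. Leaving out the stiff 0 h libraries gave 0.298, and leaving out any other group gave 0.353 to 0.382. The correlations share the same libraries and their depth and carry no p. In the mean over screened genes, pairs of opposite sign cancel. The gap therefore does not show that the members stand out from other sets of genes that vary together. The members' within-group spread was wider too, with a median SD of 0.266 on the log2 scale, against 0.169 for screened genes.

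The library that stood lowest was stiff 0 h replicate 1. There 83 of 89 members were below their group mean, with a median deviation of -0.34, while 50.2% of screened genes were below with a median of -0.00095. Soft 36 h replicate 2 followed in number, with 80 of 89 below and a median of -0.17, and soft 24 h replicate 3 had 75 of 89 below and a median of -0.19. Soft 36 h replicate 3 was the highest, at 0.23. The summed members' level of 6142 CPM in stiff 0 h replicate 1, against 9734 and 9200 CPM in its group, was still far above the 2178 and 1871 CPM of soft 12 h. The member ranked 27 shows it among single genes, at 28.5 CPM in stiff 0 h replicate 1, against 137 and 130 CPM in the other two libraries of that group, and at 10.3 and 4.60 CPM at soft 12 h. Across the screened genes that were not members, which are not independent, the deviation of stiff 0 h replicate 1 had a Pearson's r of 0.239 with the dip on soft (soft 12 h minus the mean of soft 0 h and soft 24 h, log2). That of soft 36 h replicate 2 was 0.233, and the other 13 libraries that do not enter the dip had -0.244 to 0.157.

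The correlation with the mean of the other members was above 0 in 86 of 89 and above 0.5 in 60, with a median of 0.713. The 3 members below 0 were those ranked 38, 59 and 75, at -0.653, -0.695 and -0.553. Among themselves these 3 correlated at 0.948 to 0.949, and they had the 3 widest within-group spreads of all members, with SDs of 1.09, 1.24 and 1.01 on the log2 scale. They were picked out after their values were seen.

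The member ranked 38 shows their course. On soft it was at 7.04, 3.69 and 37.6 CPM at 0 h, 1.84 and 3.22 CPM at 12 h, 3.39, 3.96 and 13.5 CPM at 24 h, and 14.5, 20.6 and 2.72 CPM at 36 h. On stiff it was at 14.2, 4.47 and 3.06 CPM at 0 h, 3.75, 5.28 and 11.1 CPM at 12 h, 11.3, 4.38 and 4.90 CPM at 24 h, and 13.7, 7.69 and 14.4 CPM at 36 h. The soft 12 h libraries overlapped with others here, where soft 36 h replicate 3 and stiff 0 h replicate 3 were below the higher of them. The member ranked 59 was at 6.65, 3.21 and 33.5 CPM at soft 0 h, 2.21 and 2.45 CPM at soft 12 h, and 11.3, 39.3 and 3.50 CPM at soft 36 h. Its soft 24 h replicates 1 and 2 and its stiff 0 h replicates 2 and 3 lay below both of its soft 12 h libraries. Soft 12 h was thus the lowest group mean of this member without holding the lowest libraries of this member. That ranked 75 was at 6.85, 3.85 and 32.6 CPM at soft 0 h, 2.39 and 4.60 CPM at soft 12 h, and 17.5, 29.4 and 8.16 CPM at soft 36 h. In all 3 the highest libraries were soft 0 h replicate 3 and soft 36 h replicate 2, and the soft 12 h libraries overlapped with others. The other exception, ranked 70, was at 4.97 and 2.76 CPM at soft 12 h, and its overlap came from soft 0 h replicate 3 at 3.62 CPM and stiff 0 h replicate 2 at 4.47 CPM.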

How the data were processed

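RNA of 23 libraries was measured with QuantSeq FWD, a method that counts 3′ end tags of polyadenylated RNA, per the labels' protocols. The authors deposited raw counts, 1 whole number for each gene and library. The rat build rn6 and the tools HISAT2 2.1.0, HTSeq and FastQC are named in the submitters' processing notes. Trimming, strand setting, duplicate handling and annotation release were not given in the sources used here, so overlapping genes and near-identical copies may share reads.

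The members and all lists and tests were chosen with earlier results of these data known. CPM used column totals. Tests used edgeR 4.0.16 (R 4.3.3): the quasi-likelihood F test on 8 group means, TMM factors, filterByExpr (minimum count 10, minimum total 15), and Benjamini-Hochberg adjustment over 11857 genes, all 89 members among them. The tests were also run on simulated counts with each gene drawn independently. That run has no bearing on genes that vary together, as the members do, and nothing is read from it. DESeq2 1.42.0 was an alternative. The comparison of the 0 h to 24 h change between substrates, and the correlations between members, were added after the data were examined.

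Of 32883 identifiers, 0 matched the reference table of gene names, so the 28 gene lists, the markers, the gene in the series title and the sequences were not used. The rule for named genes was to name the members with the deepest dips, the highest levels and the smallest p-values. As a departure from it, 4 identifiers are printed: the 2 deepest dips and the 2 members with the smallest p among those higher at 24 h than at 0 h on soft. The others are given by rank.

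Each of 22 within-group pairs of libraries differed by more than sampling noise, with a chi-square per degree of freedom of 2.42 to 9.11 (genes of 20 counts or more), and each library counts as 1 sample. Intervals are exact Poisson at 95% and cover counting error only. Figures were drawn with matplotlib 3.10.9.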

Additional observations from a re-analysis of the deposited data

How the results depend on the processing

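Every other setting of the rule that was tried kept a set of soft 12 h genes, and its size moved. A ratio under 0.6 gave 163 members and one under 0.4 gave 46, against 89. TMM-scaled totals gave 78, all among the 89, a floor of 2 CPM gave 119 and one of 10 CPM gave 72. Without single libraries there were 84 to 106 members, the highest count without soft 12 h replicate 3, of which 79 were among the 89. With no filter on low counts the members called, soft against stiff, were 3 at 0 h, 1 at 24 h and 4 at 36 h, against 0 with the filter. In the other contrasts it gave 18 by 12 h on stiff, 11 and 10 from 24 h to 36 h on soft and stiff, and 4 for the change from 0 h to 24 h between substrates. A fit of only the compared groups gave 1 at 36 h and 11 from 24 h to 36 h on stiff. The share of all genes called was not recorded for these or the other alternative fits, those without single libraries and with a replicate block included. The counts are therefore not read as a trait of the members. The cause of these changes was not tested.

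Without single libraries the members called numbered 5 to 18 by 12 h on stiff, 12 to 16 from 12 h to 24 h on stiff, 20 to 29 by 24 h on soft, 18 to 39 by 24 h on stiff, 3 to 8 from 24 h to 36 h on soft and 1 to 8 on stiff. They were 0 in each such fit of soft against stiff at 0, 24 and 36 h, and of the change from 0 h to 24 h between substrates. The log2 difference from 0 h to 24 h on stiff changed sign in 2 members that were not called there: ENSRNOG00000056337 was at -0.31 without stiff 0 h replicate 1 and -0.14 without stiff 24 h replicate 3, within a range of -0.31 to 0.38 over single libraries, and ENSRNOG00000017231 was at 0.20 without stiff 0 h replicate 2 and 0.13 without stiff 24 h replicate 2, within a range of -0.28 to 0.20.

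Round numbers are shared by the groups. Same-numbered libraries deviated together with correlations of -0.0397 to 0.148, and in no contrast were all 3 above 0.1. Whether libraries of a round share more than a number cannot be told from this, and the main fit had no term for the round. With the round as a replicate block the members called were 9 from 24 h to 36 h on soft and 7 on stiff, 11 by 12 h on stiff, 20 from 12 h to 24 h on stiff, 28 by 24 h on soft and 33 by 24 h on stiff. Each of these counts was above that of the main fit, and the share of all genes called with the block was not recorded. The depth of the soft 12 h libraries limits single members: the deepest dip rests on 8 counts in all.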
